A study of Rattus norvegicus with 9 samples.

Results

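Glucose enters the cytosol through transporters of the Slc2a family, is cut to pyruvate by glycolysis, and is oxidised in mitochondria through pyruvate dehydrogenase and the citrate cycle. In pancreatic beta cells this route is the glucose sensor: its flux sets the ATP that closes potassium channels and starts insulin release, and shuttles that carry NADH electrons into mitochondria take the place of lactate production. A list of 42 genes of this route was examined in rat islets, and 38 of them were measured by the rule used here, which took probe sets assigned to a single gene and, for a gene with several, the one with the highest mean over all arrays. They are 38 of the 14217 genes measured in all. Gapdh and Pkm were covered by probe sets that the annotation assigns to several genes, and Dlat and Fh were not analysed here.

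The samples were pancreatic islets of Wistar rats, freed with collagenase just after killing. The lean group was fed standard chow (4 samples) and the obese group a high-caloric cafeteria diet, which offers palatable energy-dense human foods, for 30 days (5 samples), with 1 Affymetrix Rat Genome 230 2.0 array for each sample. The labels give neither age nor sex, nor whether a sample held the islets of 1 rat or more. The p-values therefore measure only how these samples scatter, which may be technical in part. The comparison asks whether the diets differed in the transcripts of each step of glucose use. Values are log2 expression, on which a difference of 1 is a doubling, and every difference is cafeteria diet minus chow.

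The arrays were of islet tissue by their markers: the 5 measured of 8 beta cell markers had summed log2 levels between 62.6 and 63.1 in chow and between 62.7 and 63.0 in cafeteria islets, and the dimmest of them, Nkx6-1, had a mean of 10.28. Cells of other kinds were present. The 12 measured of 13 immune cell markers were all lower under the cafeteria diet, with summed levels of 68.4 to 85.4 in chow and 64.8 to 68.6 in cafeteria islets, the highest being chow replicate 3. Of 12 measured acinar markers, out of 14 listed, 11 were higher, with summed levels of 70.5 to 81.5 and 67.4 to 86.8. Of the beta cell markers 3 were higher and 2 lower. The measured markers of alpha (3), delta (3) and PP cells (2) were all lower, by medians of -0.078, -0.27 and -0.25, with summed levels that overlapped between the diets. Of 8 measured ductal markers 3 were higher and 5 lower. Their summed levels were 54.3 to 63.7 in chow and 55.8 to 57.4 in cafeteria islets, the highest being chow replicate 1. RNA quality, taken as the mean 3' minus 5' difference of the actin and Gapdh control probe sets, ran from 1.42 to 1.80 in chow and from 1.21 to 1.74 in cafeteria islets, and a larger value marks more degraded or less completely copied RNA. In such bulk samples fewer cells of a type and less RNA per cell cannot be told apart. Correlations between arrays over all tested probe sets lay between 0.979 and 0.994.

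No member passed the test. By limma, 0 of 38 members reached an adjusted p of 0.05, against 0.00% of the 14217 genes measured, and the smallest adjusted p over all probe sets was 0.844. At an unadjusted p under 0.05 there were 6 members (15.8%), all of them higher under the cafeteria diet, beside 6.70% of all genes, of which 3.42% were higher and 3.28% lower. These were Pfkp in glycolysis, Mdh1, Mdh2 and Got1 of the malate-aspartate shuttle, Dld of pyruvate dehydrogenase and Idh3a of the citrate cycle. The count of 6 was 2 (5.26%) without chow replicate 3, beside 4.39% of all genes in that setting. It was 3 (7.89%) without chow replicate 4, beside 6.10%, and 3 (7.89%) without cafeteria replicate 4, beside 4.61%. With the acinar marker score as a covariate it was 3 (7.89%), beside 5.89%, and with the immune marker score 1 (2.63%), beside 3.31%. These shares lay nearer to those of all genes or below them. The immune score itself differed between the diets (exact permutation p = 0.0159). With it in the fit, the SE of Slc2a2 was 0.098, against 0.071 without it. Other settings raised the count: it was 7 (18.4%) with array weights, beside 9.84%, and 8 (21.1%) with RNA quality as a covariate, beside 13.5%. It was also 7 (18.4%) without cafeteria replicate 1, beside 10.8%, and without chow replicate 1, beside 10.4%. Without cafeteria replicate 1, 6 were higher and 1 lower (Glud1), and 5 were among the 6. Without chow replicate 1, 5 were higher and 2 lower (Pfkl and Pdk2), and 4 were among the 6. Without chow replicate 1 and cafeteria replicates 3 and 5 together, the 3 arrays with the largest 3' minus 5' difference, 2 members (5.26%) passed that level, beside 5.43% of all genes, and 0 of them were among the 6.

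The 4 and 5 values of a member did not overlap between the diets in 3 members, Pgam1, Mdh2 and Idh3a, all with higher values under the cafeteria diet. Over all genes 2.17% were separate, 1.33% in this direction and 0.837% in the other. The gaps between the groups were narrow, 0.014 for Pgam1, 0.034 for Mdh2 and 0.030 for Idh3a.

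The median difference over the 38 members was 0.043, with 24 higher and 14 lower, beside 0.0025 over all genes, of which 50.8% were higher. By step, the median was 0.030 for glucose transport (4 members), -0.0015 for upper glycolysis and its control (10), 0.070 for lower glycolysis (4), 0.17 for the NADH shuttles (5), 0.10 for pyruvate entry (6) and 0.027 for the citrate cycle with glutamate entry (9). The medians of transport, upper glycolysis and the citrate cycle have no settled direction: adding the acinar score to the fit turned the first to -0.0010 and the second to 0.0021, and adding the immune score turned the third to -0.019. The lower glycolysis median was 0.042 without chow replicate 1, 0.11 without chow replicate 2 and 0.030 without chow replicate 4. That of pyruvate entry was 0.052 without cafeteria replicate 3 and 0.17 with the immune score, where it exceeded the NADH shuttle median. Without the 3 arrays of largest 3' minus 5' difference, pyruvate entry had 0.032 and the NADH shuttles 0.10. Over all members the median was 0.019 without chow replicate 1, 0.069 without chow replicate 2, 0.020 without chow replicate 4 and 0.019 without cafeteria replicate 3. It was 0.0077 with the acinar score, 0.022 with the mean of a gene's probe sets and 0.022 without the 3 arrays. The precision allows bounds on the changes that did not pass: in 35 of 38 members (92.1%) the 95% interval of the difference lay within 1.5-fold to either side, as it did in 90.5% of all genes. The exceptions were Pfkl, Eno2 and Got1.

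**Figure D1:**
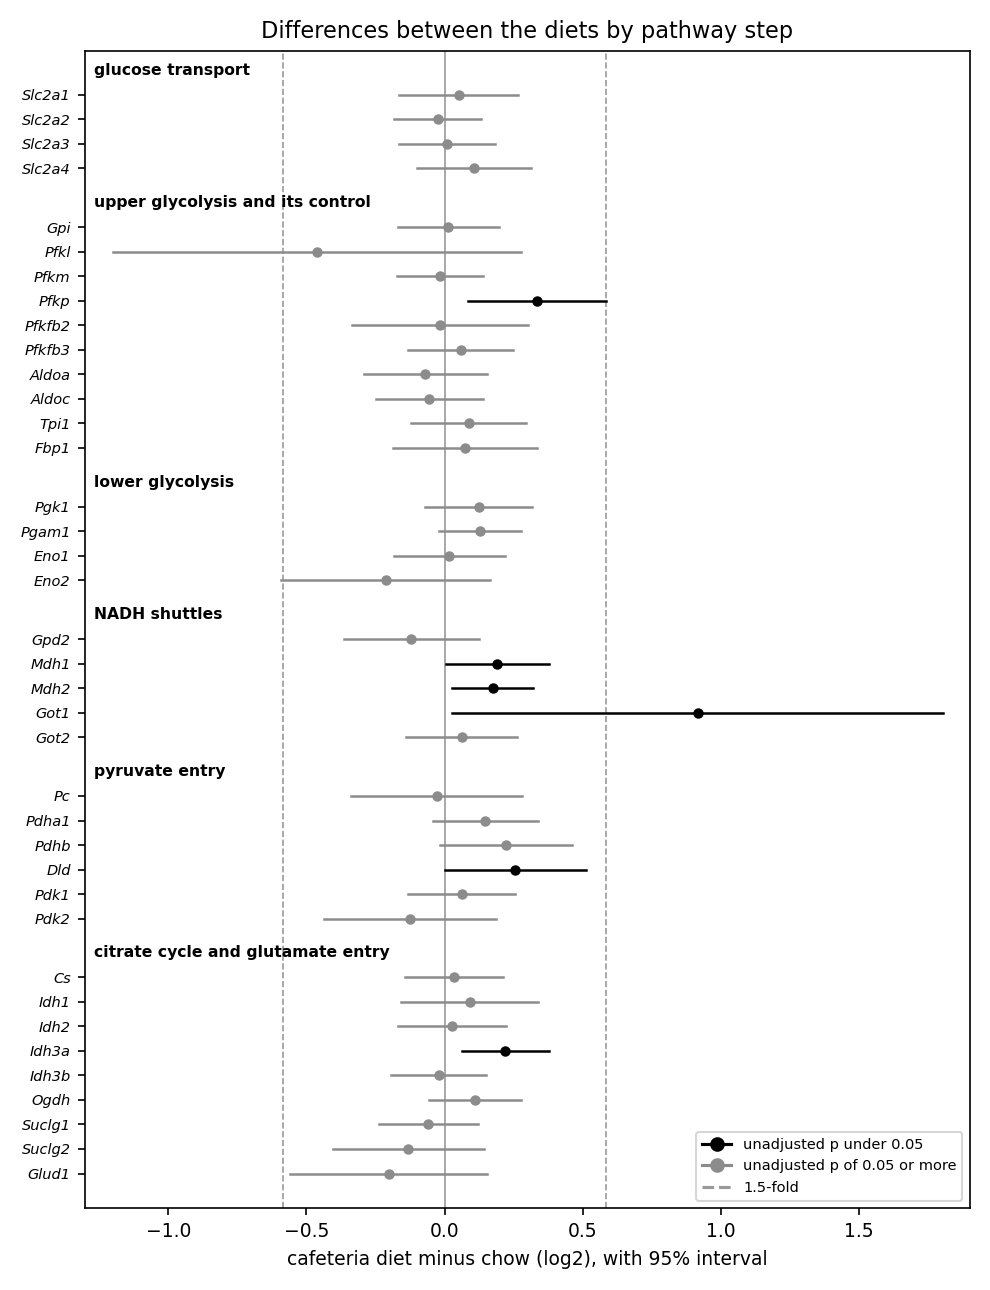
Difference between cafeteria diet and chow for each of the 38 members, as a point with its 95% interval on the log2 scale, grouped by pathway step. The 6 members in black had an unadjusted p under 0.05 and all lie to the right of 0, and the intervals of Pfkl, Eno2 and Got1 are the ones that cross a dashed line at 1.5-fold.

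Glucose transporters had 0 of 4 members at an unadjusted p under 0.05. Slc2a2, the low-affinity transporter of rodent beta cells, had log2 values of 12.70, 12.90, 12.85 and 12.85 in chow islets and 12.86, 12.78, 12.68, 12.81 and 12.86 in cafeteria islets. The groups overlapped over nearly their whole range. The difference was -0.024 (SE 0.071, 95% interval -0.18 to 0.13, adjusted p = 0.967 by limma), so that a change beyond 0.882-fold or 1.10-fold lay outside the interval, and its sign turned with scaling or single arrays. Slc2a1, the transporter of most other cells, differed by 0.051 (SE 0.097, adjusted p = 0.948), with values of 6.98 to 7.32 in chow islets and a median of 7.16 and a highest value of 7.37 in cafeteria islets. Its sign turned with the acinar score as a covariate or without cafeteria replicate 3. Slc2a4, the insulin-responsive transporter of muscle and fat, and Slc2a3, known from neurons and leukocytes, had means below the lowest array median of 5.28. Slc2a4 differed by 0.11 (SE 0.092, adjusted p = 0.871), its other probe set differed by -0.086, and the sign turned with the immune score as a covariate.

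In upper glycolysis the largest differences were those of Pfkl and Pfkp, isoforms of phosphofructokinase, which commits sugar phosphate to breakdown, and they had opposite signs. Pfkp, the platelet isoform, had values of 7.26, 7.23, 7.34 and 7.40 in chow islets. In cafeteria islets it had 7.29, 7.63, 7.85, 7.60 and 7.84. Cafeteria replicate 1 lay among the chow samples, and the 4 others lay above all of them. The difference was 0.33 (SE 0.11, 95% interval 0.085 to 0.58, a 1.26-fold level; unadjusted p = 0.0135, adjusted p = 0.844). It ranged from 0.28 to 0.42 with single arrays left out, was 0.41 with the acinar score and 0.38 with the immune score as a covariate, and 0.18 without the 3 arrays of largest 3' minus 5' difference.

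Pfkl, the liver isoform, had values of 7.04, 8.51, 8.50 and 7.91 in chow islets and 8.17, 7.81, 6.92, 7.67 and 7.06 in cafeteria islets. Both groups held low and high samples, with chow replicate 1 among the lowest of all 9. The difference was -0.46 (SE 0.33, 95% interval -1.20 to 0.28, adjusted p = 0.851), -0.78 without chow replicate 1 and -0.29 without chow replicate 2. Its within-group SD of 0.60 was larger than that of 99.1% of all genes. Pfkm, the muscle isoform, was steady in the probe set that stood for it, with a within-group SD of 0.078 and a difference of -0.017 (SE 0.070). Another Pfkm probe set, with a mean of 7.12, had a wider error, with a difference of 0.052 (SE 0.19). The dimmest, with a mean of 4.80, differed by 0.071 (SE 0.075). The bifunctional enzymes that make and break an activator of phosphofructokinase, Pfkfb2 and Pfkfb3, differed by -0.016 (SE 0.14) and 0.058 (SE 0.085). Gpi, Aldoa, Aldoc and Tpi1, which carry the hexose phosphate to triose phosphate, and Fbp1, which runs the committed step backwards, differed by between -0.069 and 0.087, and 0 of them had an unadjusted p under 0.05.

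Lower glycolysis, where ATP and NADH are made, held 4 measured members. Pgam1, phosphoglycerate mutase, had values of 11.16, 11.20, 11.10 and 11.15 in chow islets and 11.24, 11.22, 11.42, 11.24 and 11.27 in cafeteria islets. Every cafeteria value lay above every chow value, with cafeteria replicate 3 standing apart at the top. The difference was 0.13 (SE 0.067, 95% interval -0.021 to 0.27, 1.09-fold; adjusted p = 0.844), and 0.091 without that array. Pgk1, phosphoglycerate kinase, differed by 0.12 (SE 0.088, adjusted p = 0.851), with values of 10.12 to 10.51 in chow and 10.36 to 10.59 in cafeteria islets. It was 0.060 without chow replicate 4, and its other probe sets differed by 0.14 and 0.044. The enolases differed by 0.017 (SE 0.091) for Eno1 and -0.21 (SE 0.17) for Eno2, the neuroendocrine isoform, in which cafeteria replicate 3 was lowest at 8.39.

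Gapdh was read by 3 control probe sets, placed at the 3' end, the middle and the 5' end of its transcript, which were not part of the fit. At the 3' end the values were 10.51 to 11.09 in chow and 10.58 to 11.10 in cafeteria islets, a difference of -0.010 (two-sided exact permutation p = 0.960). At the 5' end they were 9.43 to 10.13 and 9.60 to 10.39, a difference of 0.085 (exact permutation p = 0.722). The control probe sets named for hexokinase were dim, with means of 4.32 and 4.36 at the 3' end, and differed by 0.038 (exact permutation p = 0.667).

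The NADH shuttles had the largest median of the 6 steps, except with the immune score as a covariate, where pyruvate entry had 0.17 and they had 0.13. Beta cells use them to pass cytosolic electrons to mitochondria, through malate and aspartate (Mdh1, Mdh2, Got1, Got2) or through glycerol phosphate (Gpd2). Mdh2, the mitochondrial malate dehydrogenase, which also closes the citrate cycle, had values of 9.37, 9.43, 9.25 and 9.32 in chow islets and 9.47, 9.48, 9.60, 9.54 and 9.50 in cafeteria islets. The groups were separate. The difference was 0.17 (SE 0.066, 95% interval 0.028 to 0.32, 1.13-fold, with unadjusted p = 0.0240 and adjusted p = 0.844 by limma). It stayed between 0.14 and 0.20 with single arrays left out, and was 0.13 with the immune score as a covariate. Its unadjusted p was not under 0.05 with the acinar or immune score, or without chow replicate 3 or 4. Nor was it without the 3 arrays of largest 3' minus 5' difference.

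Mdh1, the cytosolic malate dehydrogenase, lies outside the naming rule and was chosen after its values were seen. It had values of 12.51, 12.45, 12.57 and 12.60 in chow islets and 12.51, 12.66, 12.87, 12.76 and 12.81 in cafeteria islets, so that 4 of 5 cafeteria samples lay above all chow samples and cafeteria replicate 1 lay among them. The difference was 0.19 (SE 0.084, unadjusted p = 0.0443, adjusted p = 0.844). A second, dimmer probe set of the gene differed by 0.43 (SE 0.15).

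Got1, the cytosolic aspartate aminotransferase, had the largest difference of all members, 0.92 (SE 0.40, 95% interval 0.029 to 1.80; unadjusted p = 0.0442, adjusted p = 0.844). Its chow values were 7.86, 6.40, 6.14 and 8.20, and its cafeteria values were 7.46, 8.24, 8.11, 8.40 and 8.14. The difference came from chow replicates 2 and 3, which lay over 1 log2 unit below the other 7 arrays, while chow replicates 1 and 4 lay among the cafeteria samples. Its within-group SD, 0.73, was larger than that of 99.6% of all genes. It differed by 0.58 without chow replicate 3, which had the highest immune score, by 1.27 without chow replicate 4 and by 0.23 with the immune score as a covariate. The immune score was 1.29 in chow replicate 3 and 0.15 in chow replicate 2, beside 0.11 and -0.12 in chow replicates 1 and 4. The relation of Got1 to that score was not tested. Got2, its mitochondrial partner, differed by 0.061 (SE 0.090) and Gpd2 by -0.12 (SE 0.11), and neither had an unadjusted p under 0.05.

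**Figure D2:**
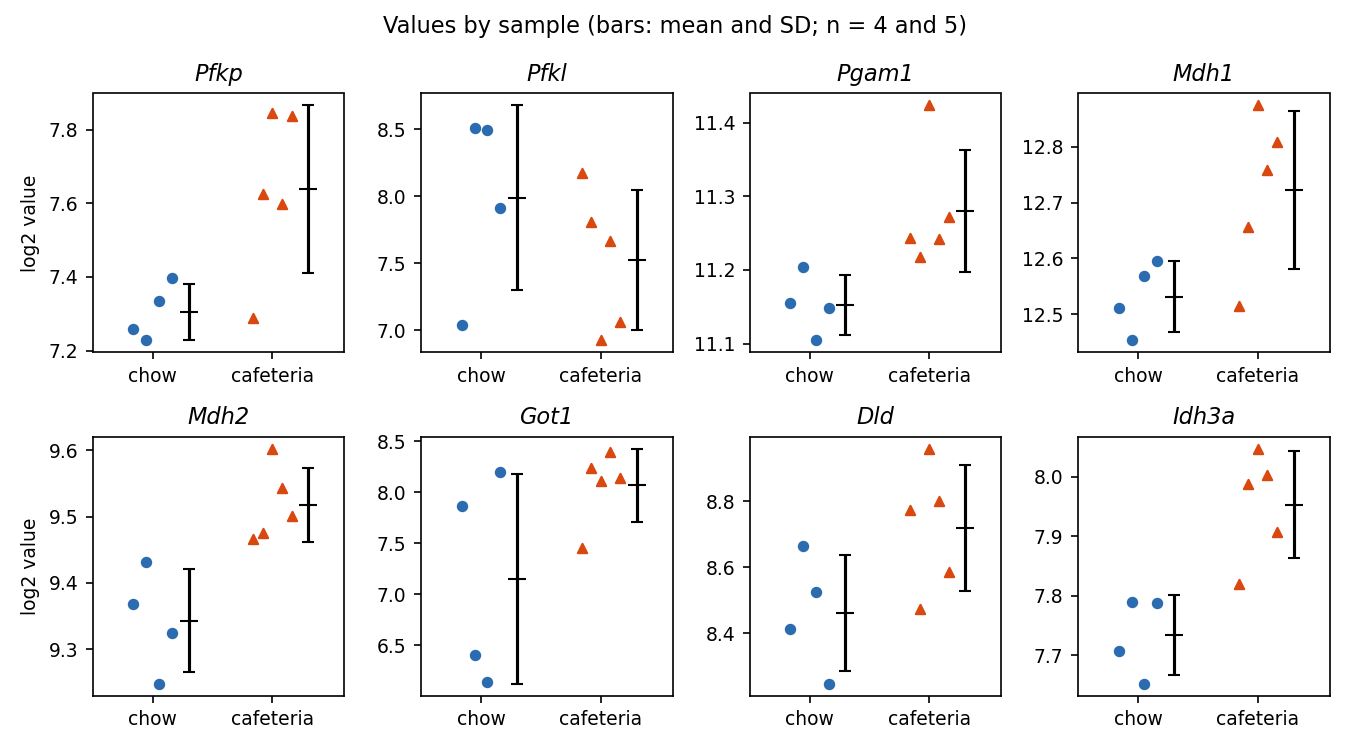
Log2 values by sample for 8 members, chow as circles and cafeteria diet as triangles, with the mean and SD of each group as bars; the vertical scales differ and do not start at 0. Every cafeteria sample lies above every chow sample for Pgam1, Mdh2 and Idh3a, and 2 chow samples lie far below all others for Got1.

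Pyruvate enters the mitochondria by carboxylation through Pc or by oxidation through pyruvate dehydrogenase, whose kinases Pdk1 and Pdk2 restrain it. Pc, the anaplerotic enzyme abundant in beta cells, had values of 6.93 to 7.48 in chow and 7.03 to 7.55 in cafeteria islets. It differed by -0.028 (SE 0.14, 95% interval -0.34 to 0.28, adjusted p = 0.983), and its sign turned with single arrays left out. Dld, the dihydrolipoamide dehydrogenase shared by pyruvate and oxoglutarate dehydrogenase, had values of 8.41, 8.66, 8.52 and 8.25 in chow islets and 8.77, 8.47, 8.96, 8.80 and 8.59 in cafeteria islets. Of the cafeteria samples 3 lay above all chow samples and the other 2 among them. The difference was 0.26 (SE 0.12, 95% interval 0.00088 to 0.51; unadjusted p = 0.0494, adjusted p = 0.844), and 0.18 with the acinar score as a covariate.

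Pdhb, a subunit of the decarboxylating component, differed by 0.22 (SE 0.11, adjusted p = 0.844), with values of 9.09 to 9.50 in chow and 9.31 to 9.77 in cafeteria islets, and by 0.15 without cafeteria replicate 3. Pdha1, its partner subunit, differed by 0.15 (SE 0.086). Its chow values were the tightest of any member, with an SD of 0.019, and 4 of 5 cafeteria samples lay above them. The kinases differed by 0.062 (SE 0.087) for Pdk1 and -0.12 (SE 0.14) for Pdk2.

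In the citrate cycle the member with the smallest p was Idh3a, the catalytic subunit of the NAD-dependent isocitrate dehydrogenase. It had values of 7.71, 7.79, 7.65 and 7.79 in chow islets and 7.82, 7.99, 8.05, 8.00 and 7.91 in cafeteria islets. The groups were separate, with cafeteria replicate 1 nearest to chow. The difference was 0.22 (SE 0.071, 95% interval 0.062 to 0.38, 1.16-fold, with unadjusted p = 0.0109 and adjusted p = 0.844 by limma). It ran from 0.19 to 0.25 with single arrays left out, and was 0.17 with the immune score as a covariate. Its unadjusted p was not under 0.05 with that score, or without the 3 arrays of largest 3' minus 5' difference. Idh3b, a second subunit of the same enzyme, differed by -0.022 (SE 0.078). Idh3g, a further subunit that is outside the member list and the naming rule, differed by -0.0045 (SE 0.073). The contrast between these subunits was not tested.

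Ogdh, of oxoglutarate dehydrogenase, differed by 0.11 (SE 0.075, adjusted p = 0.849), with values of 9.96 to 10.21 in chow and 10.18 to 10.34 in cafeteria islets. The difference was 0.051 without chow replicate 1. Glud1, glutamate dehydrogenase, through which amino acids feed the cycle in beta cells, differed by -0.20 (SE 0.16, 95% interval -0.56 to 0.15, adjusted p = 0.859). Its chow values were 9.82, 10.28, 10.12 and 9.88 and its cafeteria values were 10.31, 9.80, 9.59, 9.91 and 9.51, so that cafeteria replicate 1 was the highest of all arrays and cafeteria replicate 5 the lowest. It was -0.32 without cafeteria replicate 1 and -0.12 without chow replicate 2. The other 5 members of this step, Cs, Idh1, Idh2, Suclg1 and Suclg2, differed by between -0.13 and 0.090, and 0 had an unadjusted p under 0.05.

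**Figure D3:**
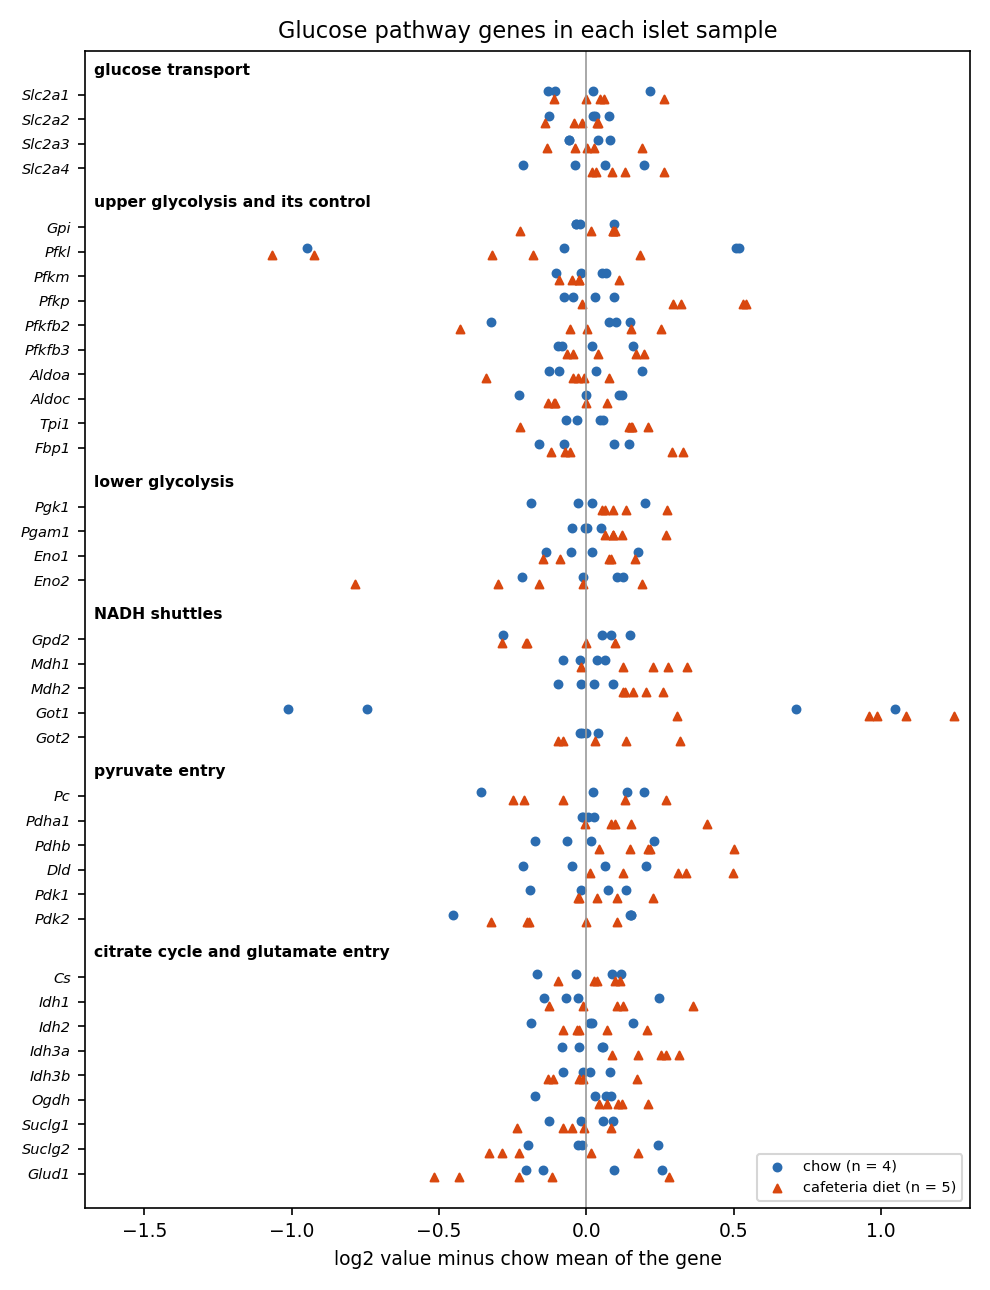
Log2 value of each member in each sample, minus the chow mean of that gene, with chow as circles and cafeteria diet as triangles. Pfkl and Got1 spread over more than 1 log2 unit within a group, and the cafeteria samples of Mdh2 and Idh3a lie to the right of all chow samples.

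Most members with several probe sets gave 1 direction. Of 38 members, 23 had 1 probe set and 15 had several, and in 5 of these 15 (Slc2a4, Pfkm, Pfkfb2, Pfkfb3 and Cs) another probe set had the opposite sign. The differences of these 5 genes lay between -0.017 and 0.11.

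The arrays contributed unequally to the extremes. Cafeteria replicate 3 held the highest value in 16 of 38 members (42.1%) and the lowest in 8 (21.1%), beside 19.8% and 18.8% of all genes. Among the 16 were Pfkp, Mdh1, Mdh2, Pgam1, Pdha1, Pdhb, Dld and Idh3a, and among the 8 were Pfkl, Aldoa, Tpi1 and Eno2. Chow replicate 3 held the lowest value in 9 members (23.7%) and chow replicate 2 the highest in 8 (21.1%), beside 13.4% and 12.7% of all genes.

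The relation of each member to RNA quality was computed across the 9 arrays, and 0 of 38 passed adjustment. Pearson's r with the 3' minus 5' difference was below -0.5 in 15 of 38 members (39.5%), against 16.1% of all genes, and above 0.5 in 5 (13.2%), against 18.6%. The strongest was Pc (r = -0.80, exact permutation p = 0.0109; Spearman's rho = -0.82, exact permutation p = 0.0108), followed by Pfkfb2 (r = -0.79, exact permutation p = 0.0106; rho = -0.83, exact permutation p = 0.00827). Without the 2 arrays farthest from the median, chow replicate 1 and cafeteria replicate 1, r was -0.60 for Pc and -0.76 for Pfkfb2. Pdk2, Eno1, Cs, Glud1, Pfkl, Pfkm and Ogdh had r between -0.78 and -0.68, and Fbp1 had 0.73. These 10 relations had an exact permutation p under 0.05, and the smallest p after Benjamini-Hochberg adjustment over the 38 members was 0.164. The share of all genes at that unadjusted level was not computed, so the count of 10 has no background beside it. The 6 members at an unadjusted p under 0.05 between the diets had r between -0.10 and 0.38, with Pfkp highest, at 0.63 without those 2 arrays. Within a diet r differed from this: it was 0.94 for Pfkp and 0.81 for Mdh1 in cafeteria arrays, and -0.55 and -0.35 in chow arrays. For Mdh2, Got1, Dld and Idh3a it lay between -0.057 and 0.51 in cafeteria arrays and between -0.40 and 0.22 in chow arrays. These relations within a diet were not tested. With RNA quality as a covariate, 8 members had an unadjusted p under 0.05 between the diets by limma, 6 higher and 2 lower (Pfkl and Glud1), where the share over all genes was 13.5%.

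**Figure D4:**
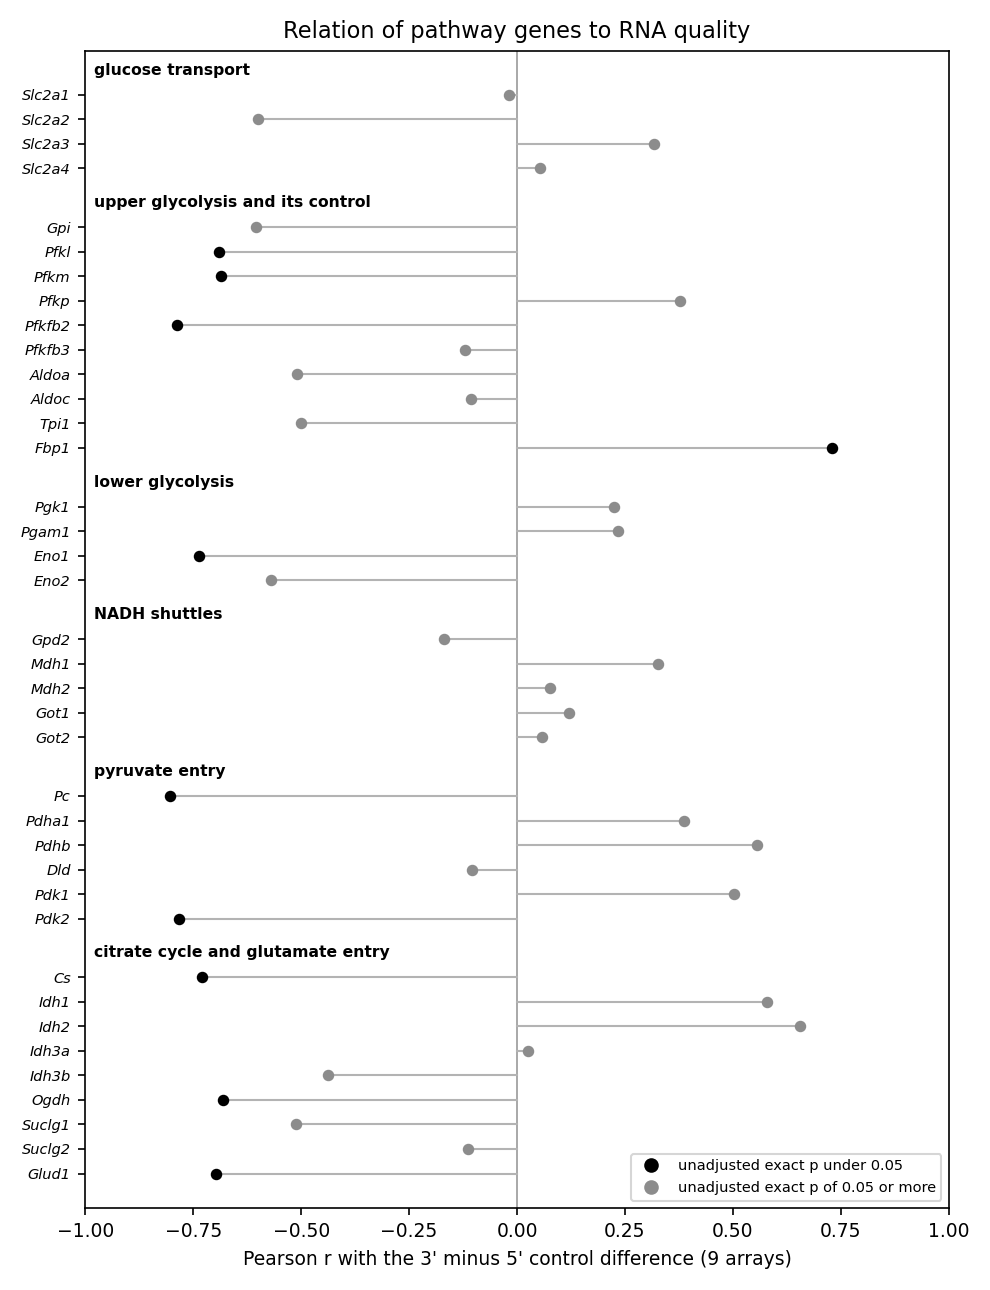
Pearson's r, over the 9 arrays, between each member and the 3' minus 5' difference of the control probe sets, by pathway step. The 10 members in black had an unadjusted exact permutation p under 0.05, of which 9 lie on the negative side and Fbp1 on the positive side. The share of all genes at that level was not computed.

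The promoters of Mdh2 and Pgam1, whose groups were separate, and of Pfkp, which had the smallest unadjusted p in glycolysis, are shown so that their sequence can be set beside these values. Idh3a, the other member with separate groups, is named only. They are the 250 bases before the start of the gene in RefSeq's annotation of GRCr8, 5' to 3' on the gene's strand, with capitals for matches on either strand to CCGCCC (a GC box), ACGTG (the core of hypoxia-inducible factor sites), CACGTG (an E box, which contains ACGTG) and TGACGTCA (a cAMP response element). Mdh2 lies at chr12:26543842-26544091 (minus strand), Pgam1 at chr1:250672902-250673151 (plus strand) and Pfkp at chr17:68639563-68639812 (plus strand).
Mdh2: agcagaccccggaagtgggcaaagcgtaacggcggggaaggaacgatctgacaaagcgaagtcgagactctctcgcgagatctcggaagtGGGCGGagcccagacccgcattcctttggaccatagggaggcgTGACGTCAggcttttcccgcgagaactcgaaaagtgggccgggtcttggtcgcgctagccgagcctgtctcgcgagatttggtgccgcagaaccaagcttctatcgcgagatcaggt
Pgam1: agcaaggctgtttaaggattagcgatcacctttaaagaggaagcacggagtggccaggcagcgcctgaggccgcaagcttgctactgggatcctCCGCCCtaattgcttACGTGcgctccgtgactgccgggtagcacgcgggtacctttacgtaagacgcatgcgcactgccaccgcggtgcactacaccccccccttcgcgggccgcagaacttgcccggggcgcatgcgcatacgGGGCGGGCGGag
Pfkp: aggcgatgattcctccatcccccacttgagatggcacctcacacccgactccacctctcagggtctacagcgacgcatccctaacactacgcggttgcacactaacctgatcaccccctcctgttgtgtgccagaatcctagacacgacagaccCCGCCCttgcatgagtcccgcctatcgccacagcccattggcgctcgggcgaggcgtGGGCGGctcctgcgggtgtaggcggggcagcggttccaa
Mdh2 held 1 cAMP element, which began at position -117 from the start, and 1 GC box, Pgam1 held 1 ACGTG and 3 GC boxes, and Pfkp held 2 GC boxes. Of the 33 members found in this table, 23 (69.7%) had a GC box, against 33.5% of the 27457 genes in it, 10 (30.3%) had ACGTG, against 18.1%, 4 (12.1%) had CACGTG, against 6.18%, and 2 (6.06%) had TGACGTCA, against 1.78%. The 27457 genes were not limited to the 14217 measured on the arrays, so the 2 sets are unlike. A gene with several starts was counted if any of them had a match. A match describes the letters in this window only.

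Of 60 further genes of glucose, pyruvate and citrate metabolism, 52 were measured, and 0 passed the adjusted threshold by limma. At an unadjusted p under 0.05 there were 7 (13.5%), 3 higher and 4 lower, with a median of -0.0097 over the 52, beside 6.70% of all genes, 3.42% higher and 3.28% lower. Me2, the mitochondrial malic enzyme, was higher by 0.25 (SE 0.081, adjusted p = 0.844), with values of 6.92 to 7.23 in chow and 7.25 to 7.46 in cafeteria islets, which did not overlap. Its other probe set differed by -0.048 (SE 0.082), and was dim, with a mean of 4.17, below the lowest array median of 5.28. Sucla2, the ATP-forming subunit of succinyl-CoA ligase, was higher by 0.31 (SE 0.11, adjusted p = 0.844), with values of 9.01, 9.43, 9.31 and 9.10 in chow islets and 9.34, 9.38, 9.63, 9.69 and 9.58 in cafeteria islets. Its GTP-forming counterpart, the member Suclg2, differed by -0.13 (SE 0.12).

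Ldha and Hk1 belong to the genes that beta cells normally keep low. Ldha, lactate dehydrogenase A, differed by -0.29 (SE 0.10, adjusted p = 0.844). Its values were 6.99, 6.70, 7.11 and 6.63 in chow islets and 6.42, 6.58, 6.61, 6.63 and 6.57 in cafeteria islets, and it was -0.21 without chow replicate 3 and -0.11 with the immune score as a covariate. Hk1, a high-affinity hexokinase, had a difference of -0.26 (SE 0.10, adjusted p = 0.844) with overlapping groups, and its other probe set had 0.10 (SE 0.088). The other 3 at that level, chosen after their values were seen, were Gls2 (0.24, SE 0.11), Eno3 (-0.22, SE 0.090) and Txnip (-0.24, SE 0.11), a glucose-induced inhibitor of thioredoxin.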

How the data were processed

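Each of the 4 chow and 5 cafeteria islet samples was hybridised to 1 Affymetrix array. The authors deposited a log2 expression value for every probe set. RMA, R 2.7.0 and affy 2.0.1 appear in the submitters' processing notes, with no role given. RMA equalises the arrays' distributions, so a shift shared by most genes would be removed, and it gives no detection call. Array medians were 5.28 to 5.32. Precision is limited by the number of arrays.

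Of 31099 probe sets, 57 controls were left out. Of the 31042 tested, 20826 had a single gene in the platform annotation (20758 matched a RefSeq gene), 436 several and 9780 none listed. Differences were tested with limma 3.58.1 (R 4.3.3; lmFit, plain eBayes, two-sided, Benjamini-Hochberg over all 31042, threshold 0.05), checked on simulated data. Marker scores are the mean difference of a list's genes from their 9-array means. Exact permutation tests ran over 126 splits of the arrays or, for the 38 correlations, 362880 orderings. Alternatives changed scaling, filter, variance model, weights, covariates, probe set choice and arrays.

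The members and lists were chosen with earlier results of these data known. Named were the 2 members with the smallest p in each of 6 steps, Slc2a1, Slc2a2, Gapdh, Pc, Glud1, members whose groups were separate, and the 4 further pathway genes with the smallest p. Gapdh had no single-gene probe set, so its control probe sets are given.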

Additional observations from a re-analysis of the deposited data

Results flagged for a closer look

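Among 50 groups of values checked for a sample far from the others, 3 held one, where chance gives about 2.5 (1 in 20). Pgam1 in cafeteria replicate 3 had a log2 value of 11.42, against 11.27 in the next cafeteria sample. Ldha in cafeteria replicate 1 had 6.42, against 6.57 in the next. The acinar marker score of cafeteria replicate 5 was -0.97, against 0.28 for the next lowest cafeteria sample, and with that score as a covariate Pgam1 differed by 0.11. The part of these samples in the differences between the diets was examined only by leaving them out or by that covariate.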

How the results depend on the processing

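Results were recomputed under 20 alternatives. Of these, 9 left out 1 array each, and 10 changed the scaling, filter, variance model, weights, covariates or choice of probe set. The last, chosen after seeing the data, left out chow replicate 1 and cafeteria replicates 3 and 5 together. Without dim probe sets 35 of 38 members were tested, and Slc2a4 was not, so it had 19 alternatives. Under all alternatives, and at an adjusted p of 0.10, 0 genes and 0 members passed. The count of members at an unadjusted p under 0.05 was 6 (15.8%, beside 6.70% of all genes). It became 3 with the acinar score (7.89%, beside 5.89%) and 1 with the immune score (2.63%, beside 3.31%). Without those 3 arrays it was 2 (5.26%, beside 5.43%), and 0 of these were among the 6. The count was 7 with array weights (18.4%, beside 9.84%) and 8 with RNA quality (21.1%, beside 13.5%). Of these 8, 5 were among the 6. With 1 array left out it ran from 2 (5.26%, beside 4.39%) to 7 (18.4%, beside 10.8% and 10.4%). The cause was not tested. Over all genes 952 had an unadjusted p under 0.05, but 471 with the immune score, 1921 with RNA quality, 578 without dim probe sets, where fewer genes were tested, and 624 to 1537 with 1 array left out. The step medians moved as well. That of pyruvate entry, 0.10, ran from 0.032 without the 3 arrays to 0.17 with the immune score. That of the NADH shuttles, 0.17, ran from 0.10 without the 3 arrays to 0.19 without cafeteria replicate 1. Of 15 named members, 11 kept their sign under all alternatives. Slc2a1 turned to -0.0079 with the acinar score and -0.0095 without the 3 arrays, with a range of -0.0018 to 0.12 when 1 array was left out. Slc2a2 turned to 0.0059 with the acinar score and 0.021 with repeated quantile normalization, with a range of -0.067 to 0.0049. Slc2a4 turned to -0.035 and Pc to 0.048 with the immune score, and Pc ranged from -0.15 to 0.036 with 1 array left out. No paired analysis was possible because the labels give the samples letters that no chow and cafeteria sample share. Depth in the sense of reads does not apply, and dim probe sets (3 of 38 members below the array medians) can hide differences.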
